A study of Mus musculus with 4 samples.

Results

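The genes described here encode the subunits of oxidative phosphorylation and a few assembly factors (Uqcc1, Uqcc2, Uqcc3 and Atp5s), chosen by symbol among the protein-coding genes of GENCODE mouse release M21. The symbol patterns cover the mitochondrially encoded mt-Nd, mt-Co, mt-Atp and mt-Cytb genes and the nuclear Nduf, Sdh, Uqcr, Uqcc, Cox and Atp5 families, with no measured value in the rule. They found 97 members among 35427 genes in the files, of which 13 are encoded in the mitochondrial genome and 84 in the nucleus. Complex I holds 43 members, complex II 4, complex III 12, complex IV 18 and complex V 20. Complexes were assigned by the first letters of the symbol, not by the place of the protein, so Ndufa4 is counted in complex I. A few subunits with other names, Cox4i1, Cox7a2l and Cyc1 among them, fall outside the patterns and are given separately.

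Oxidative phosphorylation passes electrons from NADH and succinate through complexes I to IV to oxygen, and complex V, the ATP synthase, uses the proton gradient that this builds to make ATP. All complexes except complex II join subunits made on mitochondrial ribosomes from the mitochondrial genome with subunits made in the cytosol from nuclear genes, so both genomes supply one machine. In the brain this pathway supplies most of the ATP used by neurons, and microglia use it together with glycolysis. The 13 mitochondrial genes encode the membrane core of complexes I, III, IV and V, and the nuclear genes encode, among others, the matrix-facing catalytic parts of complexes I and V, the whole of complex II and the accessory subunits.

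The samples were hippocampal RNA from C57BL/6J mice aged 4 months of the line P2RY12CreER x Rpl22HA RiboTag. In this line a Cre recombinase driven by the P2ry12 gene, which marks microglia in the brain, switches on an HA-tagged form of the cytosolic ribosomal protein Rpl22, so that tagged ribosomes and the messages on them can be pulled down. The SD group was fear conditioned and then kept awake for 6 h, and the CTRL group was fear conditioned and left to sleep for 6 h, so both groups carried the same alleles and the same training. Each group has 2 files, each sample pooled 2 mice, and the samples are described as technical replicates. The treatment field names sleep deprivation for all 4 samples, so the groups rest on the titles. Mitochondrial ribosomes do not contain Rpl22.

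The files held 14473030 and 14431647 estimated reads in the SD group and 14877011 and 14833320 in the CTRL group. Within a group the files agreed more closely than sampling noise allows for separate libraries (chi-square per degree of freedom 0.154 in SD and 0.185 in CTRL, against 71.0 to 71.3 between groups), so their mean was counted as 1 library. With 1 library a group the comparison has no replicate check and no test. Each SD/CTRL ratio is given with an exact 95% interval that covers counting error only, and a gene is called lower or higher where its ratio is at least 2-fold and the interval excludes 1. The 18 microglia markers were present in both groups and summed to 644 CPM in SD and 206 CPM in CTRL, where CPM is the read count scaled to the TMM-normalized library size. Of these markers, 14 were called higher in SD and 0 lower. Markers of other cells were also present, none at 0 in either library. The neuronal list summed to 3518 CPM in SD and 4060 in CTRL, the astrocyte list to 1470 in SD and 2333 in CTRL, the oligodendrocyte list to 2238 in SD and 3550 in CTRL, and the endothelial and mural list to 227 in SD and 281 in CTRL. Their part in the ratios below was not tested.

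A nuclear insertion of mitochondrial DNA bears on how the mitochondrial genes were counted, and its sequences are shown for that reason. On chromosome 1 of GRCm38, chr1:24611535-24616197 on the minus strand, 4663 bases hold 7 annotated copies of mitochondrial genes in their mitochondrial order. Over their aligned bases 5 of the 7 copies had no difference from the mitochondrial gene. These were Gm28661 (mt-Co2, 681 bases), Gm28437 (mt-Co3, 783 bases), Gm10925 (mt-Atp6, 678 bases), Gm10222 (mt-Nd4l, 294 bases) and Gm28439 (the first 876 bases of mt-Nd4). The first 90 bases of mt-Co2 (chrM:7013-7102, plus strand) are therefore also those of Gm28661 (chr1:24615476-24615565, minus strand).
mt-Co2 and Gm28661: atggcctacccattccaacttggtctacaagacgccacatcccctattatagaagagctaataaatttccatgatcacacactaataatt
Gm29216 aligned to bases 1054 to 1545 of mt-Co1 with 6 differences, all near its first end. With positions counted from 1 at the first base of mt-Co1, they are T1056A, C1057T, A1059G, A1060G, C1062A and A1066T. Capitals mark them in mt-Co1 (chrM:6381-6470, plus strand) and in the copy (chr1:24616108-24616197, minus strand).
mt-Co1: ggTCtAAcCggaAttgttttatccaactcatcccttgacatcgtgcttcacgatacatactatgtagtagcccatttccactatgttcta
Gm29216: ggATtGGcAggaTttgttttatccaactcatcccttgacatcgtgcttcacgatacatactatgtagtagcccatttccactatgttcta
Gm28438 differed from mt-Nd3 by T3C, in the start codon, as the first 90 bases of each show (chrM:9459-9548, plus strand, and chr1:24613030-24613119, minus strand; the capital marks the difference).
mt-Nd3: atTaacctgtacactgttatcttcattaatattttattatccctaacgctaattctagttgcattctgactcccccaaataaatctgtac
Gm28438: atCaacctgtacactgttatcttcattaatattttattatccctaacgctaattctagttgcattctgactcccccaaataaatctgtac
The 2 mitochondrial genes of complex V overlap in the same strand by 43 bases (chrM:7927-7969), which open with the start codon of mt-Atp6 and close with the stop codon of mt-Atp8, both in capitals, so a read inside them cannot be assigned to 1 of the 2.
mt-Atp8 and mt-Atp6 overlap: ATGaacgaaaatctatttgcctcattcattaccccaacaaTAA

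Mitochondrially encoded messages were lower in SD as a group, and nuclear-encoded messages were lower by less. The 13 mitochondrial genes summed to 15544 and 15561 CPM in the SD files, against 31204 and 31495 CPM in the CTRL files, a ratio of sums of 0.496. The 80 measured nuclear genes summed to 3867 and 3866 CPM in the SD files, against 4617 and 4615 CPM in the CTRL files, a ratio of 0.838. As a share of all gene reads, which needs no scaling factor, the mitochondrial members held 1.52% in SD (exact 95% binomial interval 1.516 to 1.529) and 3.20% in CTRL (3.193 to 3.211). The nuclear members held 0.379% in SD and 0.472% in CTRL. There were 4.02 mitochondrial reads for each nuclear member read in SD and 6.79 in CTRL. Mitochondrial ribosomes lack the tagged Rpl22, so the tag does not select mitochondrial messages, and their carryover in each group was not measured. In a bulk pulldown, fewer cells of a type, less RNA per cell and a different carryover of untagged RNA cannot be told apart.

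By the size rule 9 of the 93 measured members were lower in SD and 0 were higher. Over all 14907 measured genes 826 were called lower, which is 5.54%, and 651 were called higher, which is 4.37%. The called members were 7 mitochondrial genes (mt-Nd1, mt-Nd2, mt-Nd4, mt-Nd6, mt-Co1, mt-Atp6 and mt-Atp8) and the nuclear genes Ndufb9 and Uqcc3. With a limit of 1.5-fold, 27 members were lower and 4 were higher, where 13.2% and 12.8% of all measured genes passed. The 4 higher members at that limit were Ndufb2, Sdhb, Atp5l and Atp5k, all nuclear. With the transcript length offset 28 were lower and 2 higher (Sdhb and Atp5k) at that limit, where 14.7% and 14.4% of all measured genes passed. With copies summed 29 were lower and 3 higher, without Atp5l, where 13.2% and 12.8% passed. The median log2 ratio was -1.13 over the 13 mitochondrial members and -0.25 over the 80 nuclear members, beside 0.0019 over all measured genes. Of the nuclear members 54 had a ratio below 1, where 49.8% of all measured genes did. Their intervals lay below 1 in 43 and above 1 in 10, against backgrounds of 29.8% and 32.1%.

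**Figure D1:**
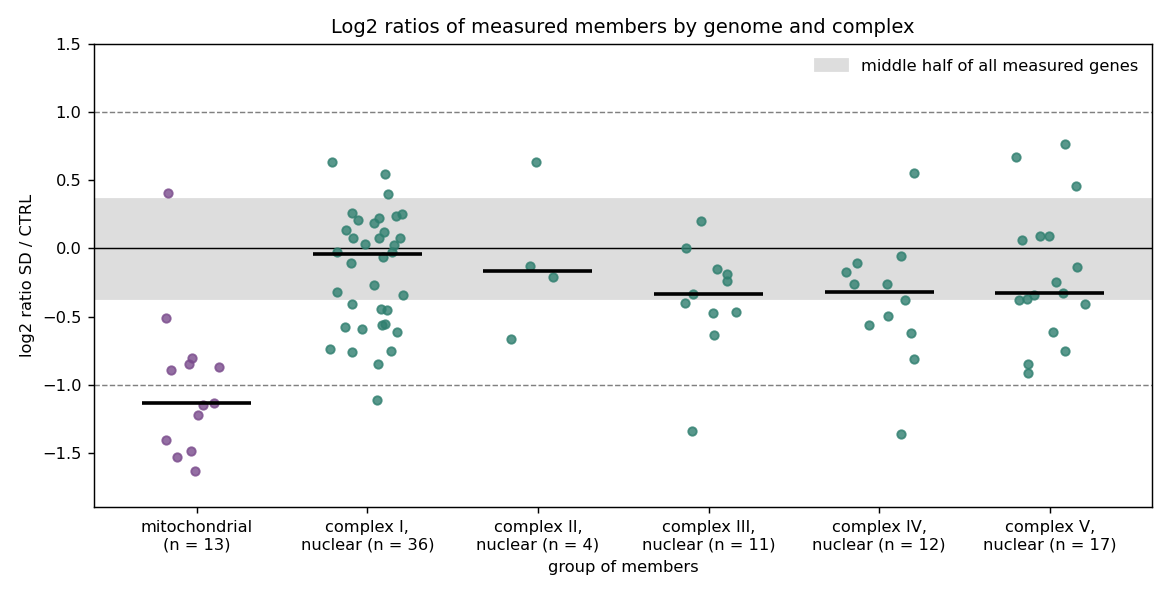
Log2 SD/CTRL ratio of each measured member (points), with the mitochondrial genes in purple and the nuclear genes of complexes I to V in green. Black bars are group medians, the grey band spans the lower to upper quartile of all 14907 measured genes and dashed lines mark the 2-fold limits. The mitochondrial median is -1.13 and the nuclear medians lie between -0.34 and -0.04.

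Among the mitochondrial genes of complex I, which form its proton-pumping membrane arm, 4 of 7 were called lower and the ratios ran from 0.322 to 0.700. mt-Nd1 had 1338 and 1337 CPM in the SD files, against 3542 and 3546 CPM in the CTRL files (ratio 0.377, interval 0.371 to 0.384). mt-Nd2 had 990.2 and 989.6 CPM in SD, against 2858 and 2862 CPM in CTRL (0.346, 0.340 to 0.353). mt-Nd6, the only member on the light strand, had 616 and 615 CPM in SD, against 1910.0 and 1910.8 CPM in CTRL, the lowest mitochondrial ratio (0.322, 0.314 to 0.330). Strand use in counting is not known, so the reads counted on mt-Nd6 cannot be assigned to that strand. For these genes both SD files lay below both CTRL files, which follows from the ratio where the files of a group nearly coincide and is no further support. mt-Nd4 was also called, with 1341 CPM in SD and 2980 CPM in CTRL (0.450). mt-Nd5 had 1075 CPM in SD and 1877 in CTRL (0.572), mt-Nd3 had 201 CPM in SD and 368 in CTRL (0.546), and mt-Nd4l had 71.1 CPM in SD and 102 in CTRL (0.700, 0.646 to 0.759), so none of the 3 reached the 2-fold limit. mt-Cytb, the cytochrome b of complex III and its only mitochondrial subunit, had 1164 and 1165 CPM in SD, against 2164 and 2160 CPM in CTRL (0.539, 0.529 to 0.549).

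The mitochondrial genes of complex IV, the 3 catalytic subunits of cytochrome c oxidase, did not share 1 ratio when each gene was read alone. mt-Co1 had 3212 and 3216 CPM in the SD files, against 7036 and 7062 CPM in the CTRL files (0.456, 0.451 to 0.461). mt-Co3 had 1948 and 1963 CPM in SD, against 3355 and 3688 CPM in CTRL (0.555, 0.547 to 0.563). mt-Co2 had 2196 and 2195 CPM in SD, against 1715 and 1596 CPM in CTRL, the only mitochondrial member above 1 (1.33, 1.30 to 1.35). The CTRL files were apart by more than counting error for mt-Co2 and mt-Co3. Over the 91 members with enough reads for the comparison, chi-square per gene was 3.57 between the CTRL files and 0.194 between the SD files.

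The nuclear copies shown above took part of these reads, and for mt-Co2 and mt-Co3 the part was far larger in CTRL than in SD. Gm28661 held 0 reads in both SD files, against 55373 and 57115 reads in the CTRL files, and the CTRL file with more reads on the copy was the one with fewer on mt-Co2. Gm28437, the copy of mt-Co3, held 285 and 135 reads in SD, against 23889 and 18857 in CTRL. Gm29216, the copy of the end of mt-Co1, held 25196 and 25053 reads in SD, against 82104 and 81903 in CTRL. The letters of the 2 genes are identical over most of each copy, so the division between gene and copy is the authors' quantification model's. Summed with their copies, the 3 genes had nearly one ratio, 0.401 for mt-Co1, 0.408 for mt-Co2 and 0.399 for mt-Co3. With copies, 9 of the 13 mitochondrial members were lower, the direction of mt-Co2 turned, and the ratios ran from 0.322 to 0.700 with a median of 0.408. The mitochondrial share of gene reads with copies was 1.70% in SD and 4.28% in CTRL, and mitochondrial reads per nuclear member read were 4.49 in SD and 9.08 in CTRL.

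**Figure D2:**
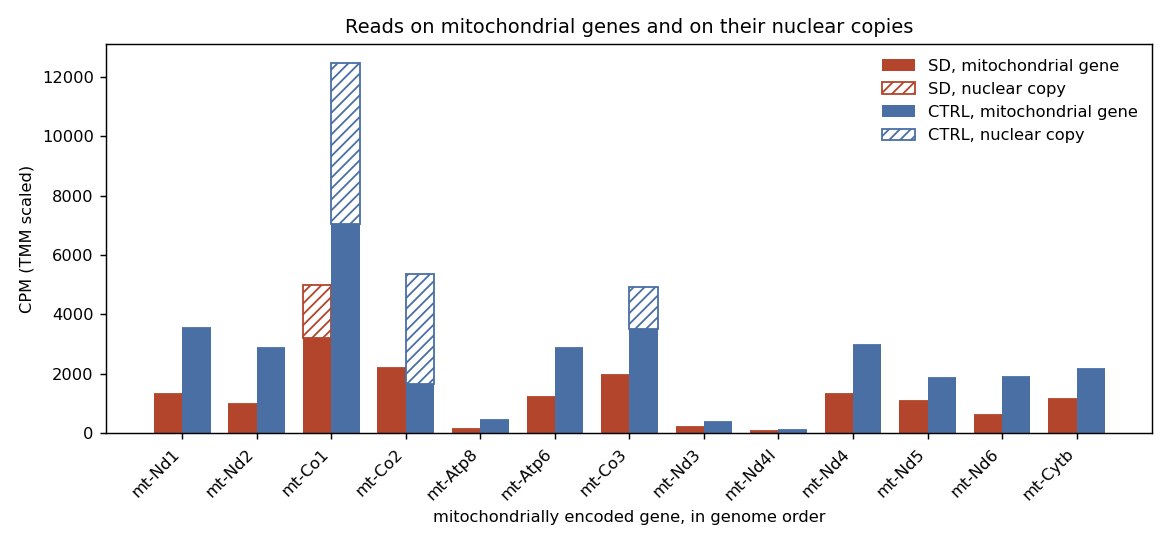
CPM (linear axis from 0) of the 13 mitochondrial genes in genome order, SD in red left of CTRL in blue, with the reads on nuclear copies hatched on top; bars are the mean of 2 files counted as 1 library. mt-Co2 alone stands at 2195 CPM in SD and 1656 in CTRL, and with its copy at 2195 in SD and 5376 in CTRL.

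The ratios with copies varied along the mitochondrial genome. From mt-Nd1 to mt-Co3, the first 7 genes in order, they lay between 0.346 and 0.426. From mt-Nd3 to mt-Cytb the heavy-strand-coded genes read 0.551, 0.700, 0.450, 0.572 and 0.539, and mt-Nd6, on the other strand between the last 2, read 0.322. The complex V genes mt-Atp8 and mt-Atp6, subunits of the proton channel side of ATP synthase, were lower in SD. mt-Atp8 had 167 and 158 CPM in SD, against 464 and 446 CPM in CTRL (0.357, 0.340 to 0.374). mt-Atp6 had 1227 and 1234 CPM in SD, against 2841 and 2889 CPM in CTRL (0.429, 0.422 to 0.437).

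**Figure D3:**
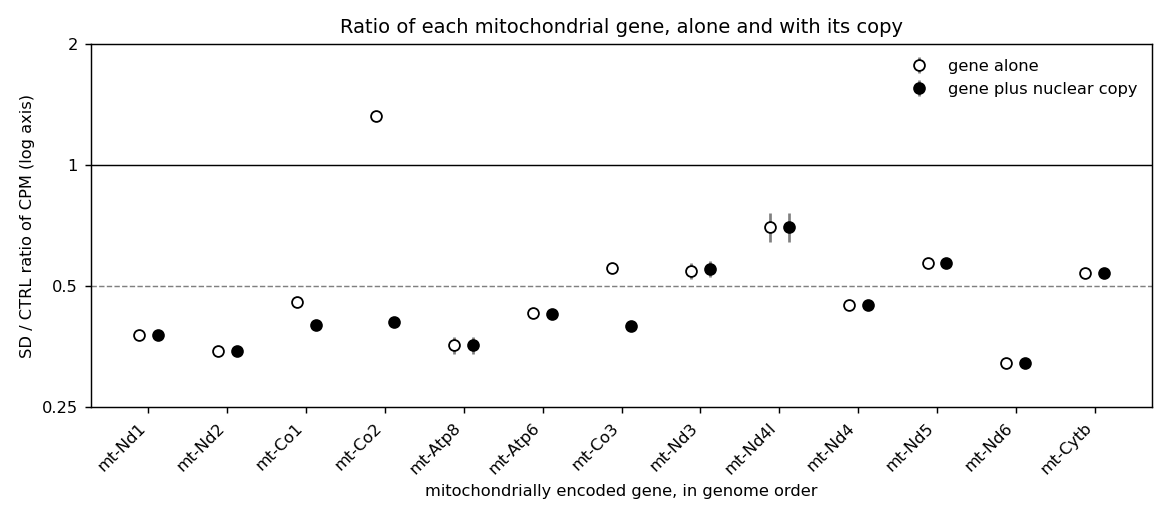
SD/CTRL ratio of CPM on a log axis for each mitochondrial gene in genome order, alone (open) and summed with its nuclear copy (filled), with exact 95% counting intervals that are mostly smaller than the points; the solid line is 1 and the dashed line 0.5. Only mt-Co2 alone is above 1, and with its copy it is at 0.408.

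Levels between mitochondrial genes were compared per length, as CPM per kb of transcript with copies included. mt-Co1 and mt-Co2 were the most abundant by this level, at 3234 and 3209 CPM per kb in SD and 8073 and 7859 in CTRL. mt-Nd4l was the least, at 239 CPM per kb in SD and 342 in CTRL. The ratio of the highest to the lowest level was 13.5 in SD and 23.6 in CTRL. The authors' TPM put mt-Atp8 first instead, at 32398 TPM in SD and 78190 TPM in CTRL, because its 204-base transcript has an effective length of 9.38 bases in the files. By CPM per kb the same gene stood at 796 in SD and 2231 in CTRL. At the low end TPM put mt-Nd5 last, at 1277 TPM in SD and 1921 TPM in CTRL. mt-Nd4l, with an effective length of 48.7 bases, had 2732 TPM in SD and 3360 TPM in CTRL. So the place of the shortest genes, and the ratio of the highest to the lowest level, depend on the measure.

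The nuclear subunits of complex I had a median of -0.04 over 36 genes (20 below 1 and 16 above), the nearest of the 5 complexes to that of all genes by CPM ratio. With an offset for transcript length the median of complex I was -0.19 and that of complex II, at -0.07, was nearer. The 7 nuclear core subunits, which bind the flavin and the iron-sulfur clusters, summed to 636 CPM in SD and 637 in CTRL with a median of -0.03. The 29 accessory subunits summed to 747 CPM in SD and 886 in CTRL with a median of -0.06. Ndufb9 (chr15:58933756-58939488, plus strand), an accessory subunit of the membrane arm, was the only one called. It had 27.6 and 27.5 CPM in the SD files, against 59.4 and 59.3 CPM in the CTRL files (0.463, 0.410 to 0.522). Ndufa13, also called GRIM-19, had 37.7 and 37.4 CPM in SD, against 67.4 and 67.8 CPM in CTRL (0.555, 0.499 to 0.617), and Ndufc1 had 8.99 and 9.09 CPM in SD, against 15.1 and 15.6 CPM in CTRL (0.592). Reads on the coding transcripts of Ndufc1 went the other way, as given below.

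At the other end of complex I, Ndufb2 had 63.2 and 62.6 CPM in SD, against 40.4 and 40.5 CPM in CTRL (1.55, 1.40 to 1.73). Ndufc2 had 13.8 and 14.1 CPM in SD, against 9.64 and 9.54 CPM in CTRL (1.46, 1.17 to 1.82), and Ndufb11 had a ratio of 1.32. Of the 7 core subunits 3 had intervals above 1 and 3 below. Ndufs1 and Ndufv1 were among those above, with small ratios of 1.09 and 1.18 (1.01 and 1.38 with the length offset). Those below were Ndufs7 (0.663, 0.598 to 0.734), Ndufs8 (0.731) and Ndufv2 (0.801), so the near-equal sums of the core hold ratios on both sides of 1. Among the abundant nuclear complex I genes, Ndufb8 had 295 TPM in SD and 341 TPM in CTRL, and Ndufa5 had 286 TPM in SD and 317 TPM in CTRL.

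Complex II, succinate dehydrogenase, is encoded only in the nucleus and also works in the tricarboxylic acid cycle. Its flavoprotein Sdha had 219.8 and 219.7 CPM in the SD files, against 241 and 240.0 CPM in the CTRL files (0.914, 0.871 to 0.959). The iron-sulfur subunit Sdhb had 60.3 and 61.0 CPM in SD, against 39.0 and 39.1 CPM in CTRL (1.56, 1.40 to 1.73). Its coding transcripts alone held 34.6 CPM in SD and 31.6 CPM in CTRL, which were 57.0% of its reads in SD and 80.8% in CTRL. Most of the rise in Sdhb was therefore on transcripts not annotated as coding. Of the membrane anchors, Sdhc had 22.9 and 20.7 CPM in SD, against 34.7 and 34.4 CPM in CTRL (0.631, 0.546 to 0.727), and Sdhd had a ratio of 0.867. So within this complex of 4 genes 1 was above 1 and 3 were below, and none was called.

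In complex III the 11 nuclear members had a median of -0.34, with 9 below 1. Uqcc3 (chr19:8880014-8880923, minus strand), a factor that takes part in cytochrome b assembly and not a subunit, was called, with 3.61 and 3.41 CPM in SD, against 9.05 and 9.01 CPM in CTRL (0.394, 0.279 to 0.549). It rests on 51 and 48 reads in SD and 137 and 136 reads in CTRL. The other assembly factors Uqcc1 and Uqcc2 had ratios of 0.792 and 0.725. Among subunits, Uqcrq had 16.2 and 16.3 CPM in SD, against 25.8 and 24.8 CPM in CTRL (0.643, 0.543 to 0.759), and Uqcr10 had a ratio of 0.722. The core protein Uqcrc1 did not differ beyond its interval, with 142 CPM in both groups (1.003, 0.943 to 1.07), and neither did Uqcr11 (1.15, 0.905 to 1.46) or Uqcrb (0.902, 0.796 to 1.02). By TPM, Uqcrh was the most abundant (280 in SD and 294 in CTRL).

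In complex IV the 12 measured nuclear members had a median of -0.32 and summed to 384 and 385 CPM in the SD files, against 488 and 491 CPM in the CTRL files. Several of its subunits have tissue forms, and in each pair the widely expressed form carried most of the reads. Cox6a1 had 26.3 and 27.1 CPM in SD, against 34.9 and 34.5 CPM in CTRL (0.768, 0.671 to 0.878), while its heart and muscle form Cox6a2 had 0 reads in SD and 5 in each CTRL file. Cox7a2 had 19.5 and 19.8 CPM in SD, against 34.7 and 34.6 CPM in CTRL (0.569, 0.490 to 0.659), while the muscle form Cox7a1 had 13 and 14 reads in SD and 18 in each CTRL file. On coding transcripts alone Cox7a2 went the other way, at 10.3 CPM in SD and 8.25 CPM in CTRL (1.25). These were 52.3% of its reads in SD and 23.8% in CTRL. Cox8a had a ratio of 0.677 (33.2 CPM in SD and 49.0 in CTRL), while Cox8b had 2 reads in each SD file and 0 in CTRL and Cox8c had 0 in all 4 files.

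The same held for the forms of Cox6b and Cox7b. Cox6b1 had 23.8 CPM in SD and 28.5 in CTRL (0.836), and the testis form Cox6b2 had 50 and 47 reads in SD, against 31 and 40.0 in CTRL (1.47, 0.931 to 2.34). Cox7b had 58.6 CPM in SD and 61.0 in CTRL (0.961), and Cox7b2 had 8 and 1 reads in SD, against 11 in each CTRL file (0.390, 0.0905 to 1.32), an interval too wide for a direction. Cox6c was the most abundant nuclear subunit of complex IV by TPM (424 in SD and 569 in CTRL) and had a CPM ratio of 0.709 (0.659 to 0.764). Cox5a, which contacts the catalytic core, had a ratio of 0.649, Cox5b 0.930 and Cox7c 0.889. A second gene annotated as Atp5o, a readthrough with Donson, had 0 reads in all files, so it, Cox6a2, Cox8b and Cox8c are the 4 members that were not measured. Exons of 38 members overlap another annotated gene, and only the readthrough gene does so over at least 50% of its bases; strand use in counting is not known here.

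In complex V the 17 measured nuclear members had a median of -0.32 and summed to 1340 and 1336 CPM in the SD files, against 1754 and 1750 CPM in the CTRL files. The catalytic F1 part, 5 genes, had a summed ratio of 0.762 and the membrane and stalk part, 11 genes, 0.765. Atp5b, the catalytic beta subunit and the most abundant nuclear member by TPM (1145 in SD and 1576 in CTRL), had 443 and 442 CPM in SD, against 575 and 572 CPM in CTRL (0.771, 0.746 to 0.797). Atp5c1, the gamma subunit of the rotor, had 52.1 and 52.5 CPM in SD, against 94.1 CPM in both CTRL files (0.555, 0.507 to 0.607). Atp5j, coupling factor 6, had 58.1 and 57.7 CPM in SD, against 109 CPM in both CTRL files (0.531, 0.488 to 0.578). Atp5h, a stalk subunit, had a ratio of 0.593 (0.557 to 0.631).

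Some small membrane subunits of complex V had ratios above 1. Atp5k, the e subunit, had 8.57 and 8.95 CPM in SD, against 5.09 and 5.23 CPM in CTRL (1.70, 1.27 to 2.29), and Atp5l, the g subunit, had 54.3 and 55.3 CPM in SD, against 34.9 and 34.1 CPM in CTRL (1.59, 1.42 to 1.78). On coding transcripts Atp5k held 6.12 CPM in SD and 2.93 CPM in CTRL, and Atp5l 18.1 CPM in SD and 14.6 CPM in CTRL. Most of the rise in Atp5l was on transcripts annotated as retaining an intron, at 36.6 CPM in SD and 19.8 CPM in CTRL. The c subunit of the rotor ring is made from 3 genes that give the same mature protein. Of these Atp5g3 had 87.3 and 86.1 CPM in SD, against 115 CPM in both CTRL files (0.752), Atp5g1 had a ratio of 1.07 (0.953 to 1.19), and Atp5g2 had 7.72 and 5.87 CPM in SD, against 5.28 and 4.59 CPM in CTRL (1.37, 1.004 to 1.88). On coding transcripts alone Atp5g3 held 33.8 CPM in SD and 32.5 CPM in CTRL (1.04). The 31-base stretches of the processed pseudogene Gm10175 all occur in Atp5g2, and summed with it the ratio was 0.815.

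**Figure D4:**
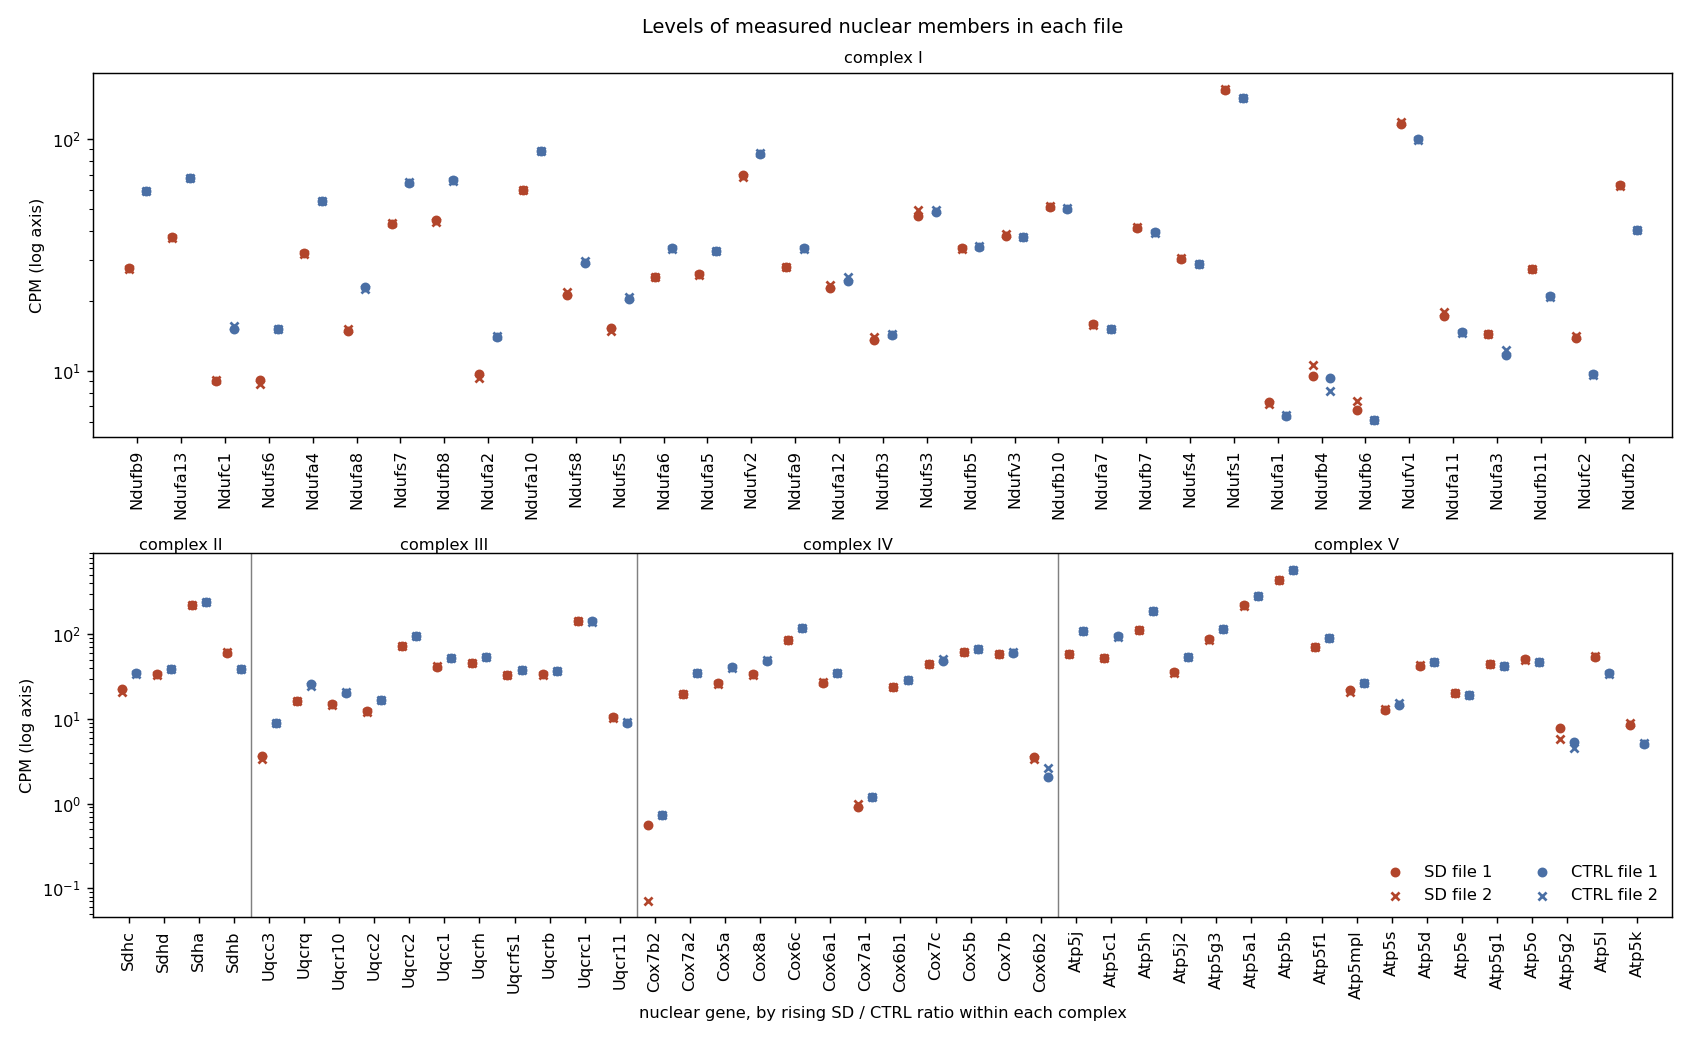
CPM on a log axis of measured nuclear members in each file (1 member is not drawn), SD in red left of CTRL in blue, circles for file 1 and crosses for file 2, ordered by ratio within complex I (top) and complexes II to V (bottom). The 2 files of a group nearly coincide except at the lowest counts, as for Cox7b2 with 8 and 1 reads in SD and 11 in each CTRL file.

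Near-identical copies touched nuclear members less than mitochondrial ones. Of 23 copies, 8 held at least 10 reads in a library, and together the 23 copies held 38.3 CPM in SD and 82.4 CPM in CTRL. Gm15920, a copy of Ndufa12, held 0 reads in both SD files, against 98.4 and 76.1 reads in CTRL. Summed with their copies, Ndufa12 read 0.75 where alone it was 0.93, Ndufb4 0.82 where alone it was 1.15, Ndufs5 0.58 where alone it was 0.73, and Atp5l 1.38 where alone it was 1.59. The nuclear median with copies was -0.30, with 57 members below 1, and the median of complex I moved to -0.17.

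The nuclear members also differed in which of their transcripts the reads were assigned to. Transcripts annotated as retaining an intron took 21.2% of the members' reads in SD and 15.5% in CTRL, and protein-coding transcripts took 67.1% in SD and 70.3% in CTRL. In other measured protein-coding genes retained-intron transcripts took 13.5% in SD and 11.1% in CTRL. Of 44 members with such reads the share was higher in SD in 35, which is 79.5%, beside 61.7% of 7442 other genes. The SD/CTRL CPM ratio of the members' reads was 0.80 on coding transcripts and 1.15 on retained-intron ones, beside 1.04 and 1.30 in the other genes, so both ratios were lower in the members. The shares in SD and CTRL were 22.7% and 13.3% in complex I, 14.0% and 14.3% in complex II, 17.2% and 10.1% in complex III, 26.0% and 19.5% in complex IV and 21.5% and 18.1% in complex V, so complex II alone did not have the higher share in SD.

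**Figure D5:**
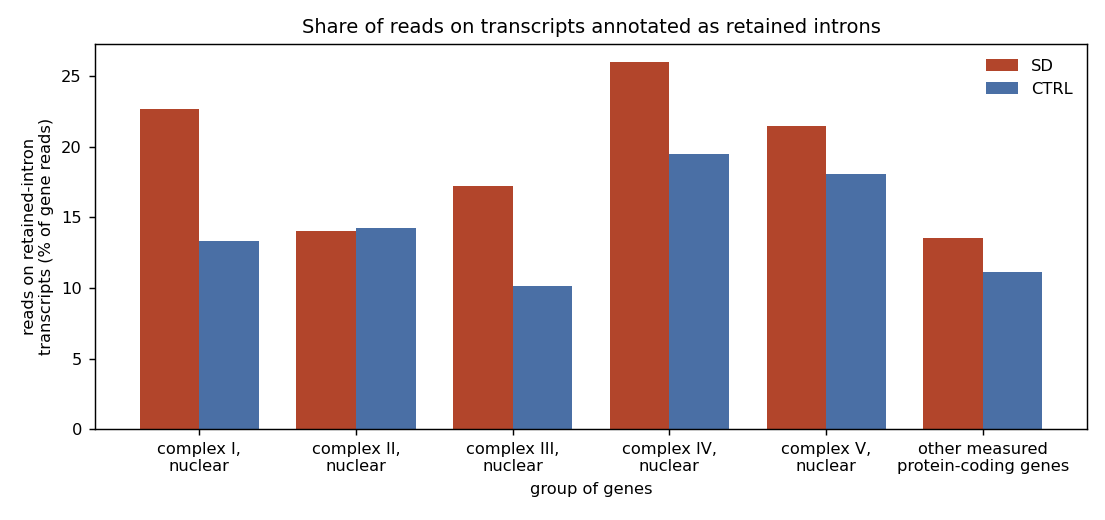
Share of gene reads (percent, axis from 0) assigned to transcripts annotated as retained introns, SD in red left of CTRL in blue, for the nuclear members of each complex and for other measured protein-coding genes; 1 library a group, so there are no error bars. The share in SD is above that in CTRL in complexes I, III, IV and V, and about equal in complex II at 14.0% in SD and 14.3% in CTRL.

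Read over coding transcripts only, 57 of the 80 nuclear members (71.3%) had a ratio below 1, beside 51.4% of 13872 other genes, and the medians were -0.29 and -0.02. At or below 0.5 were 7 members (8.75%), beside 6.24% of the other genes, a share near the background. In Atp5e, the epsilon subunit of F1, the gene ratio of 1.046 (0.739 with the length offset) stood beside 6.30 CPM on the coding transcript in SD against 9.64 in CTRL, and 13.7 CPM on the retained-intron transcript in SD against 9.48 in CTRL. In Ndufb10, an accessory subunit of complex I chosen here after its values were seen, the gene ratio was 1.02, the coding level was 2.16 CPM in SD and 18.2 CPM in CTRL, and the retained-intron level was 41.7 CPM in SD and 25.5 CPM in CTRL. In Cox5a the shift ran the other way, with retained-intron transcripts at 27.4% of reads in SD and 46.3% in CTRL. In Ndufb2 the 4371-base coding transcript held 50.6 CPM in SD and 29.3 CPM in CTRL, and the 455-base one held 1.32 CPM in SD and 3.40 CPM in CTRL. With an offset for the mean effective length of each gene, Ndufb2 read 1.03 where its CPM ratio was 1.55. Ndufc1 read 0.287 and Atp5j 0.467 with this offset, both past the 2-fold limit. On coding transcripts Ndufc1 went the other way, at 7.67 CPM in SD and 5.38 CPM in CTRL. Its retained-intron transcript held 1.37 CPM in SD and 7.31 CPM in CTRL. Atp5j was lower on coding transcripts as well, at 15.7 CPM in SD and 21.8 CPM in CTRL. With the offset 979 of all measured genes, 6.57%, were lower and 827, 5.55%, higher. Splitting reads between transcripts of 1 gene is model-based, so these values are less certain than the gene sums.

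The nuclear members are short genes. Their median transcript length was 687 bases, beside 2570 bases in other measured protein-coding genes, and 62 of the 80 were under 1000 bases. Among genes of at least 500 and under 750 bases the median log2 ratio was -0.25 over 36 members and -0.20 over 417 other genes, and among genes under 500 bases it was -0.29 over 10 members and -0.40 over 59 others. Among genes of at least 750 and under 1000 bases it was -0.10 over 16 members and 0.0068 over 717 others. Among genes of at least 1000 and under 2000 bases it was -0.23 over 16 members and 0.03 over 3960 others. So below 750 bases other genes had medians near or below those of the members, and from 750 to under 2000 bases their medians were near 0. The part of length in the ratios was not tested. Across the 80 nuclear members the log2 ratio had Spearman rho of 0.10 with length and -0.11 with mean CPM, values that share the same 2 libraries.

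Promoter sequences were available from RefSeq (GRCm38.p6) for 68 of the 84 nuclear members, as 250 bases before to 50 after the start. The consensus of nuclear respiratory factor 1 (NRF1, a regulator of many respiratory genes) was found, by exact letters, on either strand in 18 of the 68, which is 26.5%, beside 5.13% of 26957 other genes. The letters CCGGAAGT of the ETS factor GABPA were found in 7.35% of members and 4.30% of other genes. The YY1 consensus was found in 5.88% and 1.16%, and GGGGCGGGG, for Sp1 and KLF factors, in 17.6% and 12.9%. The motifs were searched separately, and the NRF1 and Sp1 letters may lie in the same GC-rich stretch. Measured members with the NRF1 letters had a median log2 ratio of -0.36 (18 genes) and those without -0.14 (49 genes). The medians with and without were -0.24 (5 genes) and -0.18 (62) for the GABPA letters. They were -0.43 (4 genes) and -0.17 (63) for YY1, and -0.39 (12 genes) and -0.17 (55) for Sp1 and KLF. So a gap in this direction was not seen for NRF1 only. The groups are small and share genes, as Ndufs6 holds NRF1 and YY1 letters and Ndufa6 NRF1 and Sp1 letters. A match describes the letters only. The 250 bases before the start of 4 such members are shown, 3 with ratios below 1 and 1 above, with the NRF1 letters in capitals, all on the minus strand. They are Atp5h (chr11:115419920-115420169), Ndufs6 (chr13:73328483-73328732, CPM ratio 0.593), Cox6a1 (chr5:115348959-115349208, 2 matches) and Atp5k (chr5:108434400-108434649).
Atp5h promoter: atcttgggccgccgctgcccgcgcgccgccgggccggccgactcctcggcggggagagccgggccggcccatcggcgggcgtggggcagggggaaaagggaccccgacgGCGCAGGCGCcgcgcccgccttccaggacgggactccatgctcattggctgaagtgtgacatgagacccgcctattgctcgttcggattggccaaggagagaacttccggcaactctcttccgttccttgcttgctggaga
Ndufs6 promoter: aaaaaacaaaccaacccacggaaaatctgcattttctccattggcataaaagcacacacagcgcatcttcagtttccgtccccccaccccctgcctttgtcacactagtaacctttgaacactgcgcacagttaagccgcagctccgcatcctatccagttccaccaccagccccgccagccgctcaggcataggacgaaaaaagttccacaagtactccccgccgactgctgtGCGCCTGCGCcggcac
Cox6a1 promoter: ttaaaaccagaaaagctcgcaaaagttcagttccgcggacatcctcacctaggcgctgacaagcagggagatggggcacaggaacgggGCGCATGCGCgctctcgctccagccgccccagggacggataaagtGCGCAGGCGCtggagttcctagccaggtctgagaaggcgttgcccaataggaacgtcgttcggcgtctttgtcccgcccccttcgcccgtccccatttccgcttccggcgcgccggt
Atp5k promoter: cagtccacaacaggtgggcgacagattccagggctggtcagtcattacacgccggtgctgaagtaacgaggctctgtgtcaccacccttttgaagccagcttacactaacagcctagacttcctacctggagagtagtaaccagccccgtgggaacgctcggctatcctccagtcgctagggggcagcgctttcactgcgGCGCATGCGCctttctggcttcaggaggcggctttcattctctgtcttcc

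Other genes of the pathway had medians nearer to 0 than the mitochondrial members. Beside the calls in these lists, 5.54% of all measured genes were lower and 4.37% higher, or 6.57% and 5.55% with the length offset. Where a list is short, 0 calls do not show that its genes did not differ. Of 7 measured subunits outside the symbol patterns 1 was lower and 0 higher, with a median of 0.10 and a ratio of sums of 0.850. That median is the value of Ndufa4l2, which had 18 reads in each group. Cox7a2l was lower at 44.2 CPM in SD and 99.2 CPM in CTRL (0.445, 0.405 to 0.489). Cox4i1 of complex IV had 119 CPM in SD and 210.1 CPM in CTRL (0.566), and cytochrome c1, Cyc1, had 165 CPM in SD and 137 CPM in CTRL (1.20). With the length offset Cox4i1 read 0.528 and Cyc1 0.981. Of 42 measured assembly factors 1 was higher and 1 lower (median -0.02). Sco2, a copper chaperone of complex IV, had 20 reads in SD and 7 in CTRL (3.06, 1.24 to 8.57), and Nubpl, an iron-sulfur factor of complex I, had 28 reads in SD and 64 in CTRL (0.469). The 2 most abundant, Ttc19 and Acad9, had ratios of 0.682 and 0.955. Ndufaf8, with 55 reads in SD and 40 in CTRL, was also called higher with the length offset (2.34, where its CPM ratio was 1.47).

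Genes that keep and transcribe mitochondrial DNA or act on its RNA had 0 called in either direction of 23 measured, with a median of 0.04. Over all measured genes 5.54% were lower and 4.37% higher. The polymerase gene Polg had 262 CPM in SD and 199 in CTRL (1.32) and Pnpt1 145 in SD and 161 in CTRL (0.898), neither past 2-fold. With the length offset Polg read 0.992 and Pnpt1 0.849, and Mgme1 was called higher (2.24, where its CPM ratio was 1.87). Of 8 nuclear regulators 0 were called (median 0.30), with Gabpa at 82.5 CPM in SD and 47.1 CPM in CTRL (1.75, 1.59 to 1.93) and Yy1 at 81.6 CPM in SD and 105 CPM in CTRL (0.779). The length offset made Pprc1 of this list called higher (2.63, where its CPM ratio was 1.69). Of 18 tricarboxylic acid cycle genes 0 were called (median -0.10). The isocitrate dehydrogenase subunits Idh3g and Idh3b had ratios of 1.61 and 1.19. Of 78 mitochondrial ribosomal protein genes 1 was higher, Mrpl14 (2.22, 1.39 to 3.62), and 1 lower, Mrpl53 (0.484, 0.393 to 0.593), with a median of -0.10. Their most abundant genes Mrps9 and Mrps25 had ratios of 1.44 and 0.675. With the length offset Mrps9 read 1.39 and Mrps25 turned direction, at 1.20.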

How the data were processed

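Ribosome-bound hippocampal RNA, enriched for polyA per the labels' protocols, was measured in 4 files. Per the file headers the authors deposited, for 116546 transcripts, a length, an effective length, TPM and an estimated count of reads. The estimated counts are deposited unnormalized, and the TPM values are length-scaled by the authors. Per the submitters' processing notes, Salmon, DESeq2 and mm10 were used; no version, layout or strand setting is given in the sources used here. Estimated counts were summed to genes by GENCODE M21 (99.4% of transcripts matched; between 0.339% and 0.366% of reads did not), averaged over the 2 files of a group, rounded and scaled by TMM in edgeR 4.0.16 (R 4.3.3). Genes passing filterByExpr with a minimum count of 10 were measured. Intervals of ratios are exact conditional Clopper-Pearson intervals at 95%, computed with scipy 1.17.1 from gene totals, and cover counting error only. A library under 3 reads was set to 3 for a fold. A copy is a gene with at least 50% of its 31-base stretches in a member. TPM served for levels between genes and for the weights of an effective-length offset.

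No edgeR test, replicate block or p-value was computed, because each group is 1 library. The members and lists were chosen with earlier results of these data known. The text names the 13 mitochondrial members, every called nuclear member, the 3 lowest and 3 highest ratios and 3 highest mean TPM of each complex, paralogue families, unmeasured members, and the called and 2 most abundant genes of each pathway list. Other genes are named for a stated reason. One nuclear member that this rule selects enters the counts, sums and medians but is not reported here.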

Additional observations from a re-analysis of the deposited data

How the results depend on the processing

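The count of 9 lower members was 9 under DESeq2 size factors, upper-quartile scaling, library totals, TMM without mitochondrial genes, no low-count filter and without each file in turn, and 11 with the transcript length offset or with copies summed; the count of higher members was 0 under each of these. At a 1.5-fold limit the counts were 27 lower and 4 higher. The ratio of mitochondrial read shares was 0.475 (0.473 to 0.478 without each file in turn), 0.467 per read outside the mitochondrial chromosome and 0.397 with copies summed. The mitochondrial median log2 ratio lay between -1.29 (copies summed) and -1.11 (TMM without mitochondrial genes), and the nuclear median between -0.31 (library totals) and -0.23 (TMM without mitochondrial genes). The scaling choices moved the median of all genes to at most -0.06 (library totals), and removing the filter moved it to 0.10. Among single genes, mt-Co2 turned direction with its copy (log2 0.41 alone and -1.29 summed), and mt-Co3 (-1.32 summed), Ndufc1 (-1.80 with the length offset), Atp5j (-1.10 with the length offset) and Cox7b2 (-1.78 without the first SD file, from 1 read in SD) passed the limit under that one change. For mt-Co2 and mt-Co3 the copies' reads are the change itself; for the others the cause was not tested. With the length offset the ratio crossed 1 in 12 members, none called either way, with the interval excluding 1 in 5 (log2 0.52 for Cox5b, 0.22 for Cox7b, -0.21 for Ndufb7, -0.44 for Atp5e and -0.27 for Atp5g1). With copies it crossed 1 in 4 (mt-Co2, Ndufb4 at -0.30, Atp5g2 at -0.30 and Atp5g1 at -0.01).

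No paired analysis was possible because the 2 files of a group were counted as 1 library, which also left the planned replicate block not run. Mitochondrial rRNA and tRNA genes were not analysed here, so the share with them was not run. With 1 library a group, variation between animals is not measured, and members with few reads, such as Cox7a1 and Cox7b2, have intervals that hold 1.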
